A study of Mus musculus with 30 samples.

Results

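The effectors of the integrated stress response examined here were 10 genes, Atf4, Ddit3, Ppp1r15a, Ppp1r15b, Trib3, Asns, Chac1, Sesn2, Atf3 and Atf5, out of 23993 genes measured as FPKM, a count of RNA fragments divided by transcript length and by the number of fragments mapped. They were chosen by symbol, as the transcription factor ATF4, the factors that work with it and genes known to follow it, and each was present as 1 row. In the integrated stress response, kinases that sense amino acid shortage, misfolded protein, viral RNA or lack of heme phosphorylate the initiation factor eIF2, which lowers protein synthesis in general while ATF4 messenger RNA is translated more. ATF4 then switches on genes for amino acid supply, redox balance and, when stress persists, cell death, and GADD34, encoded by Ppp1r15a, brings a phosphatase to eIF2 that ends the response. Because ATF4 is set largely at the level of translation, the messenger RNA levels given here do not measure the amount of ATF4 protein. In the brain the pathway is known for its part in memory, neurodegeneration and glial stress.

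The libraries came from the medial prefrontal cortex of C57BL/6 mice, 6 to 12 weeks old and heterozygous for a Cre driver (Sst or Pvalb) and a Cre-dependent tdTomato reporter, so that cells with a history of somatostatin or parvalbumin expression fluoresced red and could be sorted by FACS after papain digestion. The table holds 24 libraries: 7 of control Sst females, 7 of control Sst males, 3 of Sst males exposed to chronic unpredictable stress (CUS) for 14 days, and 7 of control Pvalb males. Control mice of all groups were unstressed and carried the same reporter. Titles were of 2 kinds, with a running number (SST3-M) or with a longer, date-like number (SST040241L), except that of SST-F, which holds no number. SST-F was counted with the numbered libraries, a choice the labels do not settle. All CUS libraries had dated titles, so that the male Sst controls were kept as 4 numbered and 3 dated libraries.

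SST0-M with SST1-M, and PV0-M with PV2-M, were nearly identical and were averaged, which left 22 samples: 7 Sst females, 3 numbered and 3 dated Sst male controls, 3 CUS males and 6 Pvalb males. The labelled cell type did not lead in any library: the mean log2(FPKM + 1) of 12 microglia markers was 7.08 to 9.04, and that of 10 interneuron markers was 0.44 to 1.97. Gad1, which makes GABA, was at 0 to 2.05 FPKM in the 24 libraries, and the label genes did not follow the labels: Sst was at 12.3 to 30.5 FPKM in the 7 Pvalb libraries, at 0 to 6.02 in the 10 Sst male libraries, at 4.18 to 18.2 in 6 Sst female libraries and at 49.3 in SST-F. Groups are named by their labels throughout. The values below are therefore those of the sorted material as a whole, and in bulk samples fewer cells of a type and less RNA per cell cannot be told apart. PV1-M, PV4-M and PV5-M are labelled male but had Xist, the RNA of the inactive X chromosome, at 300.2 to 333 FPKM, against 479 to 644 FPKM in the Sst females. Small nucleolar RNAs took 53.5% to 75.7% of all FPKM in the dated libraries and 1.87% to 8.29% in the numbered ones. SS04031R, a dated control, stood apart with a mean of 1.53 for 8 endothelial and pericyte markers, against 4.38 to 4.95 in the other dated libraries. Over all genes, the Pvalb samples fell into 3 sets (PV1-M, PV4-M and PV5-M, PV3-M and PV6-M, and the averaged pair) and the females into 3 (SST1-F, SST3-F and SST4-F, SST2-F, SST5-F and SST6-F, and SST-F). The SD of the log2 ratio of a pair was 0.218 to 0.276 within these sets and 0.413 to 0.813 between them. The labels do not say what the sets are, and the tests below counted each sample as independent. P-values over 7 females and 6 Pvalb males may therefore be too small. The CUS samples (SD 0.258 to 0.277) and the dated controls SST040241L and SST04241LL (0.267) were also alike, and the same holds for them.

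ATF4 and C/EBP proteins bind as pairs to the C/EBP-ATF response element (CARE), so the promoters of the members were read for it. RefSeq promoter windows on GRCm38.p6, from 250 bases before to 50 bases after the transcript start, were found for 9 of the 10 members. CARE, searched as TGATGNAA on both strands, was present in the windows of 4 members, Asns, Atf3, Chac1 and Trib3, and in 3.97% of all 32851 windows. The cAMP response element TGACGTCA was present in the window of Ppp1r15a and in 1.79% of all windows. The AP-1 element TGANTCA, bound by Fos and Jun, was present in that of Ddit3 and in 7.81% of all windows. These stretches are shown because they hold the elements of factors whose levels are given below (Atf4, Fos and Jun), with the match in capitals and each sequence read 5′ to 3′ along the gene's own strand.
Atf3 (CARE, chr1:191183410-191183469, minus strand): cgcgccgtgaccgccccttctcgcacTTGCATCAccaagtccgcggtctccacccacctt
Chac1 (CARE, chr2:119351023-119351082, plus strand): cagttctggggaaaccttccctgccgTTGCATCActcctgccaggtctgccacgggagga
Trib3 (CARE, chr2:152344028-152344057, minus strand): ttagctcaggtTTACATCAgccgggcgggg
Asns (CARE, chr6:7693210-7693269, minus strand): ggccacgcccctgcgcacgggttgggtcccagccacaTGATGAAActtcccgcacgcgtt
Ppp1r15a (cAMP response element, chr7:45526269-45526328, minus strand): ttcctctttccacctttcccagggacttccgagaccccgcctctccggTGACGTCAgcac
Ddit3 (AP-1, chr10:127290543-127290602, plus strand): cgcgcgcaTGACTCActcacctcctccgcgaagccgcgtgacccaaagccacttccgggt
Atf3 and Chac1 shared the same 8 letters in the match. The match of Trib3 lay 15 bases after the transcript start, in the first exon, and that of Asns 23 bases before it. None of the 3 motifs was found in the windows of Atf4 (gene at chr15:80255184-80257545), Sesn2 (chr4:132492804-132510456) and Atf5 (chr7:44812256-44816658), which says only that these letters are not there. Ppp1r15b lies at chr1:133131166-133139800.

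**Figure D1:**
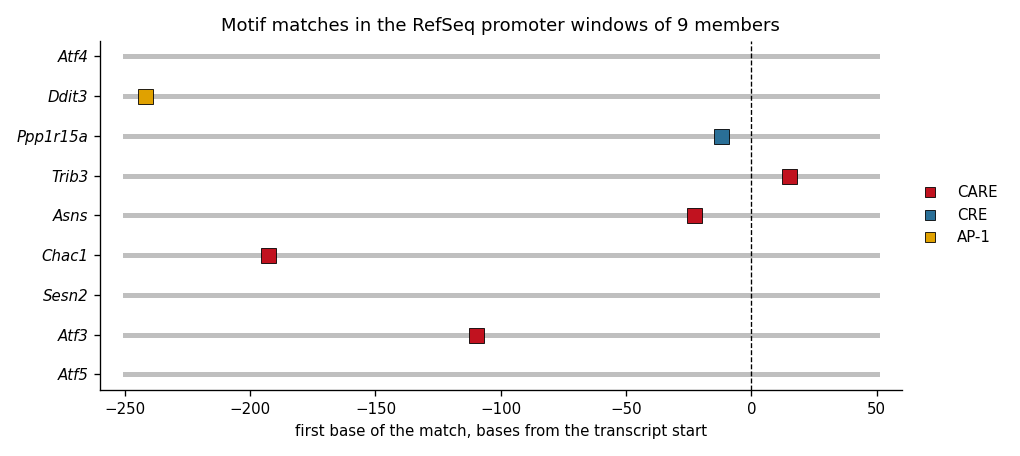
Position of motif matches in the promoter windows of 9 members, with the distance in bases from the transcript start on the x axis and 1 line per gene, the grey bar being the 300-base window. CARE matches (red) lay in Asns, Atf3, Chac1 and Trib3, at positions from −193 to 15, and the cAMP response element (blue) of Ppp1r15a lay 12 bases before the start.

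The 10 members covered a wide span of levels per unit length. Atf4, the central transcription factor, and Atf3, a stress-induced relative, were the highest, with mean FPKM over 22 samples of 97.5 and 88.2, above 98.0% and 97.7% of all genes. Ppp1r15a followed at 42.1, Ddit3, which encodes the death-promoting factor CHOP, at 35.4, and Ppp1r15b, the constitutive partner of the eIF2 phosphatase, at 17.8. Atf5, a further ATF4-like factor, had a mean of 5.44 FPKM and Sesn2, an inhibitor of mTORC1 that senses leucine, 2.51 FPKM. The lowest were Asns, which makes asparagine, at 1.31, Chac1, which degrades glutathione, at 0.217, and Trib3, a pseudokinase that restrains the response, at 0.164 FPKM. Asns and Chac1, the enzymes of amino acid and glutathione metabolism, were thus near the bottom of the list, with Trib3 below both. Neighbours in this order overlapped in range over the samples except Ppp1r15b and Atf5, whose lowest and highest samples were at 12.8 and 10.4 FPKM.

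Ppp1r15b was the steadiest member, with 12.8 FPKM in the lowest and 22.7 in the highest of the 22 samples. Ppp1r15a, which has the same phosphatase role but is induced, spanned 14.9 to 142 FPKM. Trib3 was listed at 0 in 14 of the 22 samples, among them all 6 of Pvalb males, and its highest values were 1.84 and 1.87 FPKM in the near-identical SST0-M and SST1-M and 0.710 in the CUS library SS04031RL. Chac1 was listed at 0 in 10 samples, including all 3 numbered Sst males, and reached 0.866 FPKM in SST6-F. Since a 0 in such tables may mean that the estimate failed, no fold is given for either gene. Trib3 and Chac1 were below the filter of a mean of 0.4 FPKM in every comparison, and 8 of the 10 members were tested in each.

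**Figure D2:**
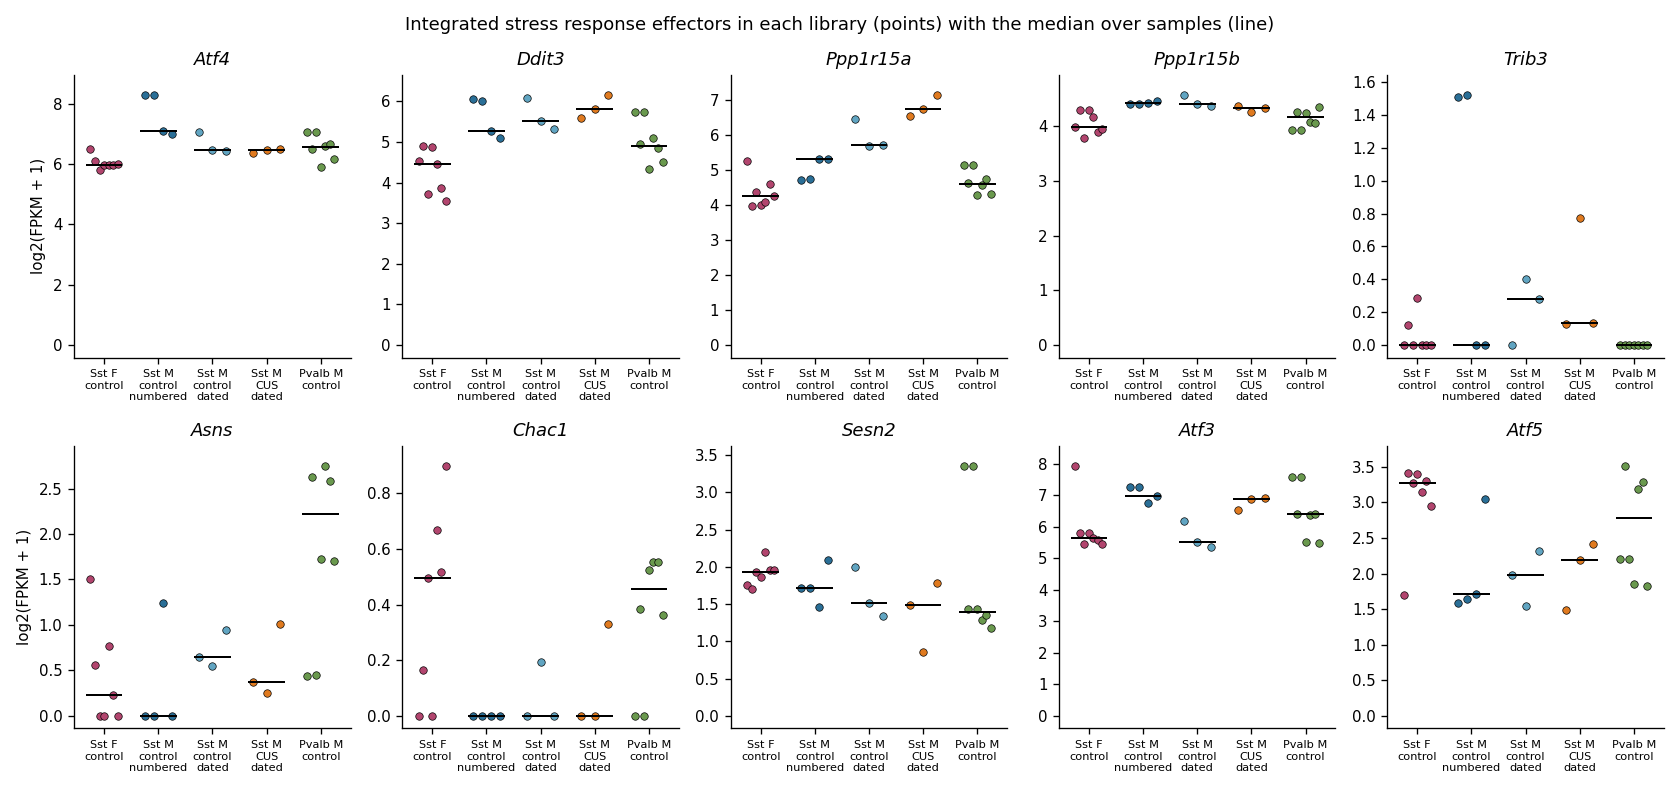
Level of each member as log2(FPKM + 1) in the 24 libraries (points), by group, with the median over samples (line, near-identical libraries averaged). All 7 Sst females lie below the numbered Sst males in Atf4, the CUS and dated libraries are the highest in Ppp1r15a, and most points of Trib3 and Chac1 are at or close to 0.

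The first comparison asked how the sexes differ in unstressed Sst mice, with 7 females against the 3 numbered males. Approximate relative depth, with SST2-F set to 1, was 0.459 to 1.53 in the female and 1.66 to 2.47 in the male libraries. The number of genes above 0.4 FPKM was 13955 to 14198 and 12124 to 13932. Neither range overlapped, and the part of depth in the differences below was not tested. Atf4 was lower in females and was the only member called, that is with an adjusted p below 0.05. In the female samples Atf4 was at 54.7 FPKM at the lowest, 62.2 at the median and 89.1 at the highest, the last in SST-F. In the males it was at 313 FPKM in the averaged SST0-M and SST1-M, 134 in SST3-M and 127 in SST4-M. Every female sample lay below every male sample, while the males themselves differed 2.46-fold, more than the 1.63-fold span of the females. The log2 fold change, on the log2(FPKM + 1) scale as all those below, was −1.41 (SE 0.26, limma, adjusted p = 0.0210), and 1.13% of all genes had a lower one. In all, 493 of 14443 genes (3.41%) were called in this comparison, so that 1 of 8 members stands beside a background of 3.41%. Of the fits that left out 1 sample, the one without the averaged male pair gave the difference closest to 0, −0.99 (adjusted p = 0.0115). The call was lost without any one of SST2-F, SST3-F, SST4-F, SST5-F and SST6-F, with adjusted p of 0.0507 to 0.0546. With each set of like females averaged and counted once, Atf4 was at −1.31 (SE 0.41, 3 against 3, limma, adjusted p = 0.762). No member was called in that fit, beside 0.111% of all genes. Atf4 and Ddit3 had an unadjusted p under 0.05 there, as had 885 of all 14359 genes.

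The other transcription factors of the group did not pass the test. Ddit3 ranged from 10.6 FPKM through a median of 20.9 to 28.8 in females and was at 64.4, 37.7 and 32.9 FPKM in the male samples. The groups of Ddit3 did not overlap, and its log2 fold change was −1.20 (SE 0.33, adjusted p = 0.0667). Among the females, SST1-F, SST3-F, SST4-F and SST-F had 20.9 to 28.8 FPKM and SST2-F, SST5-F and SST6-F 10.6 to 13.5. Atf3 was at 42.8 to 55.2 FPKM in 6 females and at 246 in SST-F, and at 153, 107 and 125 in the males. SST-F thus exceeded every male, and the log2 fold change of Atf3 was −1.04 (SE 0.46, adjusted p = 0.195). Atf5 had the opposite sign, with 6.75 to 9.63 FPKM in 6 females, 2.23 in SST-F, and 2.06, 2.27 and 7.23 in the males, and a log2 fold change of 0.90 (SE 0.41, adjusted p = 0.202).

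Neither regulatory partner of the eIF2 phosphatase passed the test. Ppp1r15a was at 14.9 FPKM at the lowest, 18.3 at the median and 37.8 at the highest in females, and at 25.7, 39.1 and 39.4 in the males, which overlap (log2 fold change −0.76, SE 0.27, adjusted p = 0.125). Ppp1r15b was at 12.8 to 18.6 FPKM in females and at 20.1, 20.5 and 20.9 in males, with no overlap but a small log2 fold change of −0.38 (SE 0.16, adjusted p = 0.184). Over the 8 members tested, 6 had an unadjusted p under 0.05, against 3515 of all 14443 genes, and the median log2 fold change was −0.57 beside 0.05 over all genes. In 3 of 8 members (Atf4, Ddit3 and Ppp1r15b) the groups did not overlap, as in 9.73% of all genes tested. Sesn2 and Asns, of the amino acid branch, did not pass the test, and Asns was listed at 0 in SST2-F, SST3-F, SST6-F, the averaged male pair and SST4-M.

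The count of called members depended on single females: it was 0 without any one of SST2-F to SST6-F (104 to 140 genes in all), and 5 without SST-F. In the fit without SST-F, Atf4, Ddit3, Ppp1r15a and Atf3 were lower in females (Atf3 −1.37, SE 0.16, adjusted p = 0.00190) and Atf5 was higher (1.13, adjusted p = 0.0395). In that setting 12.4% of all genes were called. With all 6 male control samples 3 members passed, Atf4 (−1.01), Ddit3 (−1.28) and Ppp1r15a (−1.18), beside 11.7% of all genes, and with the dated males alone 5 passed, beside 41.5%. Against the dated males Atf3 had a log2 fold change of 0.28 (adjusted p = 0.663), the opposite sign.

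Of 77 other genes of the pathway, 2 passed the limma test for sex, beside 3.41% of all genes. An unadjusted p under 0.05 was found for 19 of the 77, against 3515 of all 14443 genes. Of 12 genes for amino acid synthesis, 10 amino acid transporters, 13 cytosolic tRNA synthetases and 12 genes of eIF2, its exchange factor and its kinases, none passed the limma test, while 1, 2, 2 and 2 of them had an unadjusted p under 0.05. Of 14 ATF4 targets in stress, growth and autophagy, 1 passed, Herpud1, an endoplasmic reticulum protein of protein quality control, at a mean of 23.3 FPKM in females and 40.0 in males (log2 fold change −0.74, SE 0.16, adjusted p = 0.0402). Of 11 factors that pair with ATF4, 1 passed and was lower, Fos (143 against 328 FPKM, −1.31, SE 0.30, adjusted p = 0.0437), and Jun had −1.09 (adjusted p = 0.0516). All 11 had negative log2 fold changes, and 8 had an unadjusted p under 0.05. A list of 22 early response genes, which are known to be induced within minutes by enzymatic tissue dissociation, had negative log2 fold changes throughout, as Atf4 did. Of these 22, 8 passed and 18 had an unadjusted p under 0.05, and the median of the list was −1.21. The list shares Fos, Jun, Junb and Jund with the factors that pair with ATF4. Among them Hspa1a, a heat shock chaperone, was at −2.51 and Klf2, a zinc finger factor, at −2.30. Egr1 was at −1.31 (adjusted p = 0.0582). The mean log2(FPKM + 1) of this list was 4.89 to 6.36 in females, highest in the sample SST-F, and 6.30 to 7.02 in the males, and its part in the Atf4 difference was not tested. The interneuron marker mean was 0.88 to 1.97 in females and 0.47 to 0.86 in males, the endothelial and pericyte mean 3.83 to 4.57 and 2.27 to 4.10, and the microglia mean 7.70 to 8.44 and 7.79 to 8.44, and their part was not tested either.

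**Figure D3:**
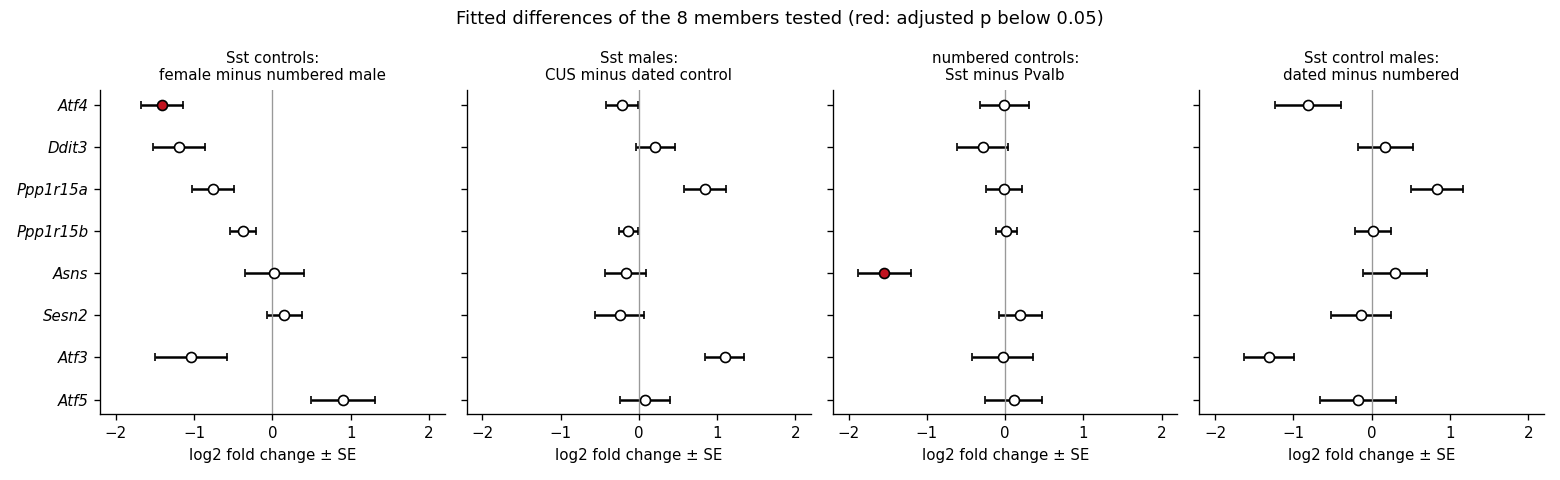
Log2 fold change (x axis, with SE bars) of the 8 members tested, 1 panel per comparison, fitted by limma on log2(FPKM + 1), with red points for an adjusted p below 0.05. The red points are Atf4 in the comparison of the sexes (−1.41) and Asns in that of Sst with Pvalb (−1.54).

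The second comparison asked what CUS does in Sst males, with 3 CUS samples against the 3 dated controls. No member was called by limma, and 2 of 8 had an unadjusted p under 0.05, Atf3 and Ppp1r15a, against 956 of all 14186 genes. Atf3 was at 91.1, 118 and 121 FPKM in the CUS samples and at 71.3, 44.9 and 39.9 in the controls. The 3 CUS values were all above the controls, the highest of which was SS04031R, and the log2 fold change was 1.10 (SE 0.25, adjusted p = 0.647). Ppp1r15a was at 92.2, 106 and 142 FPKM after CUS and at 88.1, 51.1 and 52.0 in the controls, where SS04031R again was the highest. Its log2 fold change was 0.85 (SE 0.27, adjusted p = 0.647). The groups did not overlap in these 2 of 8 members, as in 18.7% of all genes tested, and 1 gene in all (0.00705%) was called. That gene, named after its values were seen, was Slc1a2, a glutamate transporter listed at 0 in all 3 controls and at 779 to 851 FPKM after CUS. Since a listed 0 may mean that the estimate failed, this call cannot be read as a gene switched on by CUS. The astrocyte marker mean was 5.46 to 6.62 in the controls and 6.53 to 6.71 after CUS. The reason for the listed zeros was not tested.

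Atf4 itself was at 81.6, 86.7 and 88.5 FPKM after CUS and at 133, 87.1 and 84.9 in the controls, the 133 being SS04031R. The groups overlapped and the log2 fold change was −0.21 (SE 0.21, adjusted p = 0.716). Ddit3 was at 47.2, 54.9 and 70.4 FPKM after CUS and at 66.7, 44.5 and 39.1 in the controls (0.21, SE 0.25, adjusted p = 0.762). Ppp1r15b, Asns, Sesn2 and Atf5 also overlapped, and the median of the 8 members was −0.03 beside 0.00 over all genes. Trib3 was listed at 0.092, 0.710 and 0.095 FPKM after CUS and at 0, 0.323 and 0.215 in the controls, and Chac1 was above 0 in 1 sample of each group.

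The choice of controls decided which of the pair passed. The titles of the 3 CUS samples (SS04031LL, SS04031RL and SS04031RR) share their number with SS04031R and with no other control, so that without this control CUS and title number cannot be told apart. Without SS04031R, the control nearest to the CUS samples in both genes, Atf3 passed (1.35, SE 0.13, adjusted p = 0.0183) beside 0.113% of all genes, and Ppp1r15a was at 1.10 (adjusted p = 0.0805). The controls left in that fit, SST040241L and SST04241LL, were alike over all genes (SD of the log2 ratio 0.267), as were the CUS samples (0.258 to 0.277). Its p-values rest on like samples on each side and may be too small. Against the 3 numbered males instead, Ppp1r15a passed (1.68, SE 0.26, adjusted p = 0.0116) beside 16.1% of all genes, and Atf3 was at −0.21 (SE 0.22, adjusted p = 0.537), the opposite sign. With all 6 male controls neither passed. Ppp1r15a was positive in each of these settings, and Atf3 in all but the numbered males. The settings share CUS samples and some controls, so like signs are not separate results. The fit with numbered males also holds the difference between dated and numbered controls, which was 0.84 in Ppp1r15a and −1.31 in Atf3. Of the 93 other genes of the pathway and of the early response tested in 8 lists, limma called none after CUS, and 13 had an unadjusted p under 0.05. The 22 early response genes all had positive log2 fold changes with a median of 0.49. Of them 7 had an unadjusted p under 0.05, against 956 of all 14186 genes. Fos was at 0.73 (SE 0.32), Jun at 0.36 (SE 0.31) and Egr1 at 0.20 (SE 0.34), none past the threshold (adjusted p = 0.647, 0.699 and 0.833). The means of oligodendrocyte markers were 7.28 to 7.57 after CUS and 5.41 to 6.998 in the controls, and those of microglia markers 7.08 to 7.28 and 7.36 to 8.40, with no overlap. The interneuron marker mean, that of the labelled cell type, was 0.82 to 1.06 after CUS and 0.44 to 0.76 in the controls, also with no overlap. The part of these markers in the values of Atf3 and Ppp1r15a was not tested.

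**Figure D4:**
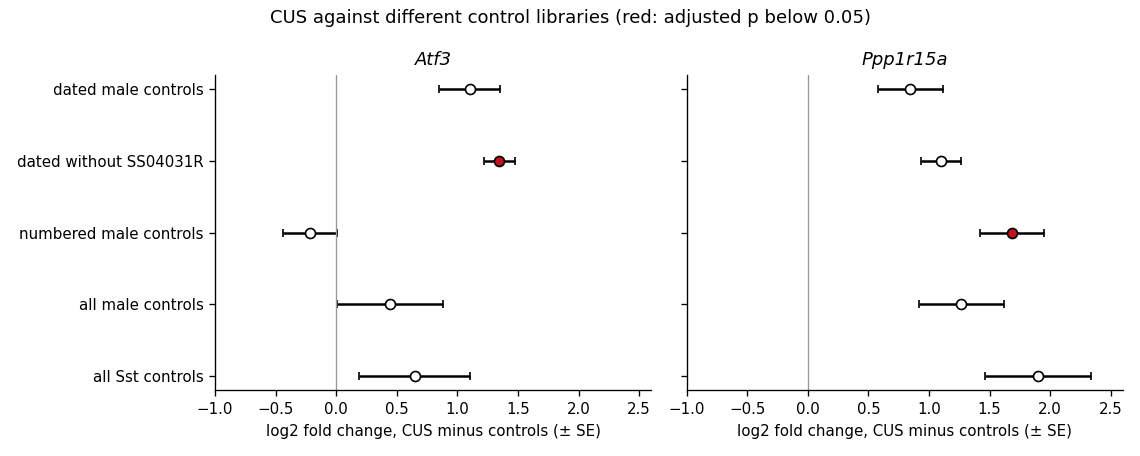
Log2 fold change after CUS (x axis, with SE bars) of Atf3 and Ppp1r15a against 5 choices of control samples, with red points for an adjusted p below 0.05. Atf3 runs from −0.21 with the numbered males to 1.35 without SS04031R, while Ppp1r15a stays between 0.85 and 1.90.

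The third comparison set 10 numbered Sst controls of both sexes against the 6 Pvalb males. Asns was the only member called, lower in Sst samples, beside 1478 of 14483 genes (10.2%). In the Sst samples Asns was listed at 0 in 5 and reached 1.84 FPKM in SST-F. In the Pvalb samples it was at 5.18, 5.74 and 5.01 FPKM in PV1-M, PV4-M and PV5-M, at 2.32 and 2.26 in PV3-M and PV6-M, and at 0.355 and 0.361 in the near-identical PV0-M and PV2-M. The Pvalb samples thus formed 3 levels, the lowest of them inside the range of the Sst samples. The log2 fold change was −1.54 (SE 0.34, adjusted p = 0.0106), and no SD is given because of the listed zeros. PV1-M, PV4-M and PV5-M, the 3 with the most Asns, are those with high Xist, and PV3-M and PV6-M had Xist at 6.64 and 5.12 FPKM, against 0.439 and 0.446 in PV0-M and PV2-M. Without the 3 libraries of high Xist, Asns was at −0.86 (SE 0.37, adjusted p = 0.316), and 0.0622% of all genes were called. In the Sst females, with Xist of 479 to 644 FPKM, Asns did not exceed 1.84 FPKM. With the 3 numbered Sst males alone Asns was at −1.56 (SE 0.54, adjusted p = 0.282). With each set of like samples averaged and counted once, Asns was at −1.06 (SE 0.51, 6 against 3, adjusted p = 0.981), and no member was called by limma or had an unadjusted p under 0.05, beside 0.00693% of all genes called. The mean log2(FPKM + 1) of the excitatory neuron markers was 3.83 to 4.02 in the 5 Pvalb libraries with 2.26 to 5.74 FPKM of Asns and 3.78 in SST-F, the Sst sample with the most Asns. It was 1.71 in PV0-M and PV2-M and 1.76 to 2.58 in the other numbered Sst libraries, and its part in the Asns difference was not tested.

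**Figure D5:**
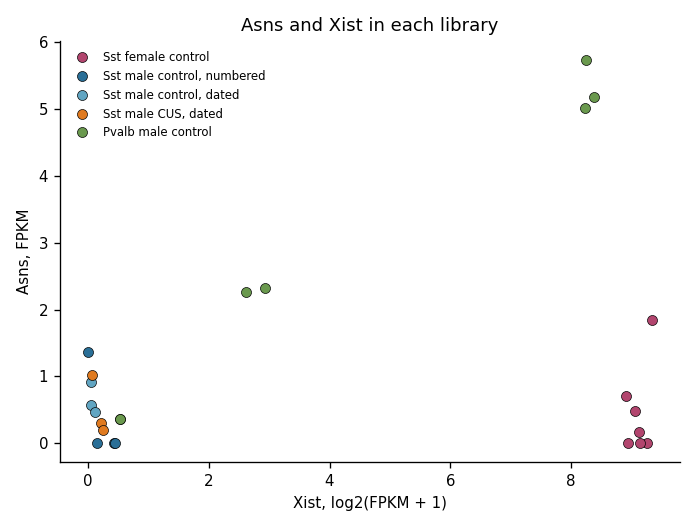
Asns in FPKM (y axis) against Xist as log2(FPKM + 1) (x axis) in each of the 24 libraries, coloured by group. The 3 libraries labelled Pvalb male with the most Asns, 5.01 to 5.74 FPKM, lie near the Sst females on the Xist axis, while the females have at most 1.84 FPKM of Asns.

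The same 3 sets of Pvalb libraries appeared in other members. Atf3 was at 191 and 192 FPKM in PV0-M and PV2-M, at 82.4 to 84.3 in PV1-M, PV5-M and PV4-M, and at 45.0 and 44.0 in PV3-M and PV6-M. Atf5 was at 8.12 to 10.4 FPKM in PV1-M, PV5-M and PV4-M, and at 2.54 to 3.60 in the others. Sesn2 was at 9.27 and 9.26 FPKM in PV0-M and PV2-M and at 1.27 to 1.71 in the other Pvalb libraries, with a log2 fold change of 0.19 (SE 0.27, adjusted p = 0.690). Without PV0-M and PV2-M, Sesn2 also passed, at 0.53 (adjusted p = 0.0324), which made 2 called members beside 19.9% of all genes. No member had groups that did not overlap, against 1.44% of all genes tested. The median of the 8 members was −0.02 beside 0.01 over all genes, and the log2 fold changes of Atf4, Ppp1r15a, Ppp1r15b and Atf3 were between −0.03 and 0.01, with SE of 0.14 to 0.39. The mean of the microglia markers was 7.70 to 8.44 in the Sst samples and 8.63 to 9.04 in the Pvalb samples, with no overlap, and its part was not tested either.

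Of 77 other genes of the pathway tested 9 passed, beside 10.2% of all genes. An unadjusted p under 0.05 by limma was found for 17 of the 77, against 3999 of all 14483 genes. None was called without the high-Xist libraries, with the numbered Sst males alone (76 tested) or with sets of like samples averaged. In these fits 6, 9 and 1 had an unadjusted p under 0.05, against 2081 of all 14467, 2021 of 14253 and 648 of 14420 genes. Of 12 genes for amino acid synthesis 2 passed, both higher in Sst samples: Shmt2, the mitochondrial enzyme that makes glycine from serine, at a mean of 8.43 against 3.56 FPKM (1.07, SE 0.17, adjusted p = 0.00302), and Cth, which makes cysteine, at 7.26 against 3.16 FPKM (1.01, SE 0.24, adjusted p = 0.0166). Of 10 transporters 2 passed and were higher, Slc7a11, which imports cystine, at 0.78 (SE 0.19) and Slc1a5, which carries glutamine, at 0.96 (SE 0.29), with adjusted p of 0.0180 and 0.0428. Of 13 tRNA synthetases Iars was higher (0.50, adjusted p = 0.0187) and Tars lower (−0.52, adjusted p = 0.0465). Of 14 targets in stress, growth and autophagy Ndrg1 was higher (0.73, adjusted p = 0.0428) and Map1lc3b, an autophagosome protein, lower (−0.43, adjusted p = 0.0261). Cebpd, a C/EBP factor, was higher (1.30, adjusted p = 0.0283), and of the early response genes Socs3 was lower (−0.99, adjusted p = 0.0253), while Fos (−0.52), Jun (−0.34) and Egr1 (−0.51) did not pass. None of the 12 genes of eIF2 and its kinases and none of the 5 phosphatase partners passed by limma, with 2 and 0 of them at an unadjusted p under 0.05.

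Within the label of control Sst male, the 3 dated and the 3 numbered samples were also compared, since the CUS and sex comparisons use one or the other of them as controls and so share those samples. No member was called by limma, 2 of 8 had an unadjusted p under 0.05, against 3354 of all 14230 genes, and 585 genes (4.11%) were called. Atf3 was at 39.9, 44.9 and 71.3 FPKM in the dated and at 107, 125 and 153 in the numbered samples, which did not overlap (−1.31, SE 0.32, adjusted p = 0.0663). Ppp1r15a lay the other way, at 51.1, 52.0 and 88.1 FPKM in the dated and 25.7, 39.1 and 39.4 in the numbered samples, also without overlap (0.84, SE 0.33, adjusted p = 0.180). Atf4 overlapped by 1 sample, SS04031R (−0.81, SE 0.42, adjusted p = 0.291). Non-overlap in 2 of 8 members stands beside 33.5% of all genes tested. Of the early response genes 5 of 22 passed, all lower in dated samples, with Dusp1, a phosphatase of MAP kinases, at −3.20 and Zfp36 at −2.94. Fos was at −1.33 (adjusted p = 0.0836), Egr1 at −2.43 (adjusted p = 0.0316) and Jun at 0.02 (adjusted p = 0.986). Eif2ak3, the eIF2 kinase PERK of the endoplasmic reticulum, was the 1 of 12 genes of its list to pass, at a mean of 20.9 FPKM in dated and 3.67 in numbered samples (2.35, SE 0.48, adjusted p = 0.0421).

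Within the groups some members varied together. After the mean of each of the 5 sets of samples was removed, Pearson's r of log2(FPKM + 1) over 22 samples was 0.76 for Ppp1r15a with Atf3, 0.73 for Atf4 with Ddit3 and 0.72 for Atf4 with Atf3. These r are a description, since libraries differed in depth and differences between sets of like samples remained within the groups. The share of all genes that reach such r is not given here. Without the averaged SST0-M and SST1-M, Atf4 with Atf3 was at 0.87 and Atf4 with Ppp1r15a went from 0.35 to 0.77. In 4 of the 5 sets 1 sample was the highest in both Atf3 and Ppp1r15a: SST-F, SS04031R, SS04031RR, and PV0-M with PV2-M. The exception was the numbered males, where the averaged SST0-M and SST1-M were the highest in Atf3 and the lowest in Ppp1r15a. The sample that led in Atf3 also had the highest mean of the early response genes of its set in all 5. Both matches are a description over sets of 3 to 7 samples, and neither was tested. Asns had r of −0.58 to Sesn2 and between −0.08 and 0.19 to the other members tested. Of genes with a mean of at least 5 FPKM, those closest to Atf4 by this measure were Ss18 (0.93), a subunit of chromatin remodelling complexes, Pid1 (0.92), Mbd1 (0.92), a protein that binds methylated DNA, BC005537 (0.92) and Slc25a5 (0.91), a mitochondrial ADP and ATP carrier. Without the averaged male pair their r was 0.85 to 0.90.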

How the data were processed

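RNA-seq had been done on FACS-sorted tdTomato cells, and 24 of the 30 labelled samples had a column in the deposited table, the other 6 being not analysed here. The authors deposited FPKM per gene and library. Their Methods name trimming, TopHat2 with mm9, HISAT2 with mm10 and StringTie, while the submitters' processing notes name TopHat2, Cufflinks, Cuffdiff and mm10, so the exact route is uncertain, and it is not stated whether ComBat was applied to these values. The authors' DESeq2 test on counts was not repeated. The Methods give a narrow range of reads per sample for the study, but the table holds no counts or mapped reads per library. Steps among the lowest values gave an approximate relative depth of 0.459 to 2.47 (SST2-F set to 1), and no counting interval can be given. Relative depth was 0.760 to 0.936 in the dated controls, 1.05 to 1.13 after CUS and 0.478 to 1.82 in the Pvalb males. It was 0.459 to 1.53 in the females and 1.66 to 2.47 in the numbered Sst males. The sides thus did not overlap in depth for sex, CUS or titles, and the part of depth was not tested.

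Nearly identical libraries, with a log2 ratio whose SD over genes was below 10% of the SD of the next pair in the group, were taken as 1 sample by their mean (SST0-M with SST1-M, SD 0.0212 against 0.267, and PV0-M with PV2-M, SD 0.0170 against 0.225). Values were transformed to log2(FPKM + 1), which understates the change of low genes, and a gene entered a test where its mean over both groups exceeded 0.4 FPKM. Two-sided tests were made in R 4.3.3 by limma 3.58.1, using lmFit and a robust eBayes with a trend. P-values were adjusted by Benjamini and Hochberg's method across every gene that entered, and 0.05 was the threshold. The labels do not say that samples of a group came from separate animals, so p-values measure the spread between these samples, which may be technical. Samples of a group with an SD of the log2 ratio below 0.3 were taken as like sets, a choice made after seeing the data. The members and gene lists were chosen with earlier results of these data known. Named genes were all members, up to 2 genes a direction from each list among those past the threshold, Fos, Jun and Egr1, label checks, and the 5 genes most like Atf4. On simulated data, limma recovered 46.8% of genes changed by 1 log2 unit in the comparison of the sexes, 48.0% in that of CUS, 67.0% in that of Sst with Pvalb and 0.952% in that of the titles. Changes were put only into genes of higher level, so these shares do not cover low members such as Asns and Sesn2. The simulated noise was independent between samples, unlike that of like sets. Promoter sequences and gene positions are those of RefSeq on GRCm38.p6. Other steps were run in Python 3.11.15 (pandas 2.3.3, matplotlib 3.10.9).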

Additional observations from a re-analysis of the deposited data

Results flagged for a closer look

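Members were checked for a sample far from the rest of its labelled group on the log2(FPKM + 1) scale (Dixon's criterion), in the 7 Sst females, the 6 Sst male controls of both kinds of title and the 6 Pvalb males. Of 29 checks 9 stood out, 4 of them in Trib3 and Chac1, which were listed at 0 in 14 and 10 of the 22 samples. Chance flags about 1 in 20 groups where values are independent, which sets of like samples and listed zeros are not, so the 9 were not set against that share. In the females, SST-F stood apart in 3 members, with Atf4 at 89.1 FPKM (the others 54.7 to 67.5), Atf3 at 246 (42.8 to 55.2) and Atf5 at 2.23 (6.75 to 9.63). SST3-F stood apart in Trib3, at 0.220 FPKM (0 to 0.0887). In the Sst male controls, the averaged SST0-M and SST1-M stood apart in Atf4, at 313 FPKM (84.9 to 134), and in Trib3, at 1.86 (0 to 0.323), and SST040241L in Chac1, at 0.145 where the other 5 were listed at 0. In the Pvalb males, the averaged PV0-M and PV2-M stood apart in Sesn2, at 9.26 FPKM (1.27 to 1.71), and in Chac1, listed at 0 (0.286 to 0.469).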

How the results depend on the processing

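In the comparison of the sexes 1 member was called (493 genes in all). With a joint fit of 5 groups 2 were called (1175 genes in all), and 2 with near-identical libraries counted separately (2549). It was 3 with all male controls (1699), 5 with the dated males (6032), and 0 to 5 when 1 sample was left out (100 to 1787). With sets of like samples averaged, a choice made after seeing the data, 0 were called (16 genes in all), as in the comparison of Sst with Pvalb (1 gene). The CUS samples formed 1 set, so no such fit was made there. With the title number as a replicate block, and without SST-F, whose title holds no number, 0 members were called (Atf4 −1.44, adjusted p = 0.230) and 13 genes in all. Deviations of same-numbered female and male samples from their group means had r of −0.033, −0.037 and 0.029 over genes, against −0.072 to 0.058 for pairs of unlike number. With so few pairs this cannot decide whether same-numbered samples share a preparation. After CUS 0 members were called, and 1 with the numbered males (2309 genes in all), where Atf3 turned to −0.21. When 1 sample was left out it was 0 to 1 (1 to 16 genes in all). In the comparison of Sst with Pvalb 1 member was called, and 1 with a replicate block (1190 genes in all). It was 0 with the numbered Sst males (13), and 0 without the Pvalb libraries of high Xist (9), a choice made after seeing the data. When 1 sample was left out it was 1 to 2 (554 to 2883 genes in all). Between titles 0 were called. By limma 1 passed with the joint fit (Ppp1r15a, adjusted p = 0.0485), beside 3544 genes in all. With near-identical libraries counted separately 1 passed (Atf3, adjusted p = 0.0220), beside 1769 genes in all. The sign turned for Atf3 against the dated males (0.28), and for Sesn2 against Pvalb with near-identical libraries counted separately (−0.064), without high Xist (−0.13) and with sets averaged (−0.19). Of 620 values of the 32 member differences under all alternatives, 84 had the opposite sign, 0 of them of a called member. Counts over all genes ranged from 13 to 6032 for sex, 1 to 2309 for CUS, 1 to 3638 for Sst with Pvalb and 54 to 3544 for the titles, against 493, 1, 1478 and 585. Pseudocounts of 0.1 and 5, the filter and both other scalings left the count of called members at its value in each comparison. CUS used no near-identical libraries, so counting them separately gave no value there. The cause of these changes was not tested. The table holds no counts, so a listed 0 in Asns, Trib3, Chac1 or Slc1a2 cannot be read as absence.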
